A study of Mus musculus with 2 samples.

Results

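The YAP and TEAD axis was followed here through 10 genes: the effectors Yap1 and Wwtr1, the DNA-binding factors Tead1, Tead2 and Tead4, and the direct targets Ctgf, Cyr61, Ankrd1, Amotl2 and Lats2. They were found on the arrays by gene name or accession, and 15 of the 41174 probes named a member in this way. A further 2 probes carried 2610024B07Rik, an older symbol of Tead1, and were taken as Tead1, so that 17 probes stood for 10 of the 19505 genes. Ctgf is Ccn2 and Cyr61 is Ccn1 in the current nomenclature.

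The RNA came from thymic stromal cells of C57BL/6 mouse fetuses, and no genetic change is given for any group. Thymus lobes were kept in organ culture with 1.35 mM deoxyguanosine, which depletes thymocytes, for 8 days where the fetuses were at embryonic stage E14.5 and for 9 days where they were at E15.5. The lobes were then dispersed, and the cells were grown for 72 h either as a reaggregation thymus organ culture (RTOC), a dense three-dimensional aggregate on a membrane, or as a 2D culture spread on a plastic dish. Each of the 2 arrays carried RTOC RNA in Cy5 and 2D RNA of the same stage in Cy3, so each culture was measured once per stage. How many litters or fetuses went into each RNA is not given in the sources used here.

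The stroma is a mixture. All 10 thymic epithelial markers examined and all 10 fibroblast markers were well above background in every channel, while in 2D culture 3 of 8 endothelial markers were so at E14.5 and 4 of 8 at E15.5. A dye effect cannot be told apart from culture, because the dyes were never exchanged, and stage cannot be told apart from time in organ culture or from array. Where a gene was lower in such bulk RNA, fewer cells that express it and less RNA per cell cannot be told apart.

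YAP (Yap1) and TAZ (Wwtr1) are transcriptional coactivators without a DNA-binding domain of their own, and they reach their target genes mainly through TEAD factors. The LATS kinases of the Hippo pathway phosphorylate YAP and TAZ, which keeps them in the cytoplasm. In many cell types, spreading on a stiff surface favours their nuclear form, and crowding or a rounded shape favours the cytoplasmic one. Much of this control acts on the proteins, and the arrays measured mRNA alone.

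TEAD factors recognise a short element that contains GGAATG, which reads CATTCC on the other strand. RefSeq promoters of the mouse assembly GRCm38.p6 each held 250 bases before the transcription start and 50 after it. They were on hand for 7 of the 10 members, all but Ctgf, Tead1 and Tead4. At least 1 listed promoter of 6 of these 7 held GGAATG on one strand or the other, as did that of 16.6% of the 27025 genes in the table. Counted by promoter, 14.7% of all 32851 held it. The stretches before the start are shown for Cyr61 and Ankrd1, the targets with the largest differences that could be printed, and for Wwtr1, an effector that did not pass the test. They are written 5′ to 3′ along the strand of the gene, and the capitals mark GGAATG or CATTCC.
Cyr61, chr3:145649986-145650235, minus strand: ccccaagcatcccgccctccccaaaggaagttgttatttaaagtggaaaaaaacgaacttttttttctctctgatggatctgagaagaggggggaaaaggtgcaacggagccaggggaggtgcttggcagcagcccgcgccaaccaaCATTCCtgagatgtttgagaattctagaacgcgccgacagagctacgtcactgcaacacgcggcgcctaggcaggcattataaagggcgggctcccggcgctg
Ankrd1, chr19:36119845-36120094, minus strand: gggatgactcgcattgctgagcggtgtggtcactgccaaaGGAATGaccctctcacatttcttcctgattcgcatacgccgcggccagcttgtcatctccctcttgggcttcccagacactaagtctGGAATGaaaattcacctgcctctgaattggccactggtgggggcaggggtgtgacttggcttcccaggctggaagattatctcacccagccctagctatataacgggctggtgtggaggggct
Wwtr1, chr3:57575911-57576160, minus strand: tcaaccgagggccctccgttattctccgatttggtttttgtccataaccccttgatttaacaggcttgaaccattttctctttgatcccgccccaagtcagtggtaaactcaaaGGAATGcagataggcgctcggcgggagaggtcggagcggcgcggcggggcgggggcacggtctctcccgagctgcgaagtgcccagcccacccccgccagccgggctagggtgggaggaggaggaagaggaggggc

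In Cyr61 the element began 103 bases before the start, and Ankrd1 held it at 210 and again at 123 bases before the start. Amotl2 held it at 65 bases before the start, in a window that lies inside the annotated span of the gene. Yap1 held it at 141 bases, and Wwtr1 at 136 and 170 bases before the start of its 2 listed promoters. In Lats2 the only match lay on the transcribed side, at position 5 after the start of 1 of its 2 listed promoters, and the Tead2 promoter held none. The AP-1 element TGANTCA was present in 7.8% of all promoters and the CArG box in 1.6%. Neither was found on either strand in the promoters on hand, which cover 7 members. Members that passed the test and members that did not thus both held GGAATG, and a match is a description of the letters in the window, not a measured binding site.

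All 5 direct targets stood lower in RTOC on both arrays, by 2.89-fold for Lats2 up to 35.8-fold for Ctgf. Of all named genes tested, 39.5% had a log2 ratio below 0 on both arrays. The effectors Yap1 and Wwtr1, at 1.18-fold and 1.48-fold lower, did not pass the test, and Yap1 was level, at a log2 ratio of 0.0034, when normexp-corrected arrays were centred on their medians. Of the TEAD factors, Tead1 was 2.86-fold lower, Tead2 did not pass the test, and Tead4 was too dim to be tested. In all, 6 of the 9 members tested were called lower in RTOC and 0 were called higher (limma on the log2 ratio of RTOC over 2D culture, adjusted p under 0.05). Over the 13506 named genes tested with the same rule, 12.8% were called lower and 28.3% were called in either direction. The members and the lists below were chosen with earlier results of these data known, so their counts are descriptions. Of all probes called, 52.9% were higher in RTOC, a share that became 76.2% with normexp and median centring and 65.1% with processed signals centred on the median. With Tead1 taken only by its own name it could not be tested, and 5 of 8 members were called lower.

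**Figure D1:**
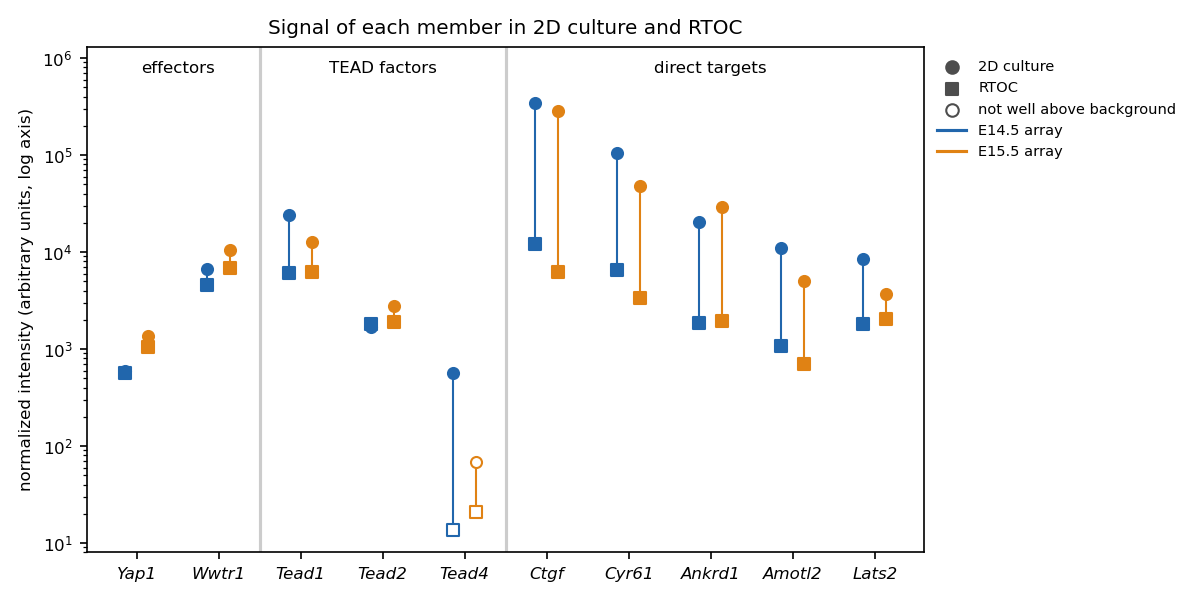
Normalized intensity (arbitrary units, log axis) of the brightest probe of each member in 2D culture (circles) and RTOC (squares), with the E14.5 array in blue and the E15.5 array in orange, lines joining the cultures of an array and open symbols for values not well above background. The 5 direct targets lie lower in RTOC on both arrays, while the symbols of Yap1 and Tead2 lie close together.

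Intensities are given after quantile normalization over the 4 channels, in arbitrary units that compare a probe with itself across channels and not with another gene's probe. None of the spots of a member was saturated, and the 9 members tested were well above background in all 4 channels. The error given with a mean log2 ratio is the SD over the 2 arrays. Each 95% interval uses the standard error from limma instead, which also draws on the spread of all probes. Each adjusted p is from limma with Benjamini-Hochberg adjustment over all 23685 probes tested.

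Ctgf, on chromosome 10 from 24595442 to 24598683, encodes connective tissue growth factor, a secreted matricellular protein of the CCN family and a target commonly used to read out YAP activity. At E14.5 its intensity was 342800 in 2D culture against 12203 in RTOC, and at E15.5 it was 284170 against 6233. On each array the 2D value lay far above the RTOC value. The mean log2 ratio was −5.16 ± 0.49 (SD, n = 2; limma adjusted p = 0.00155). Of the 23685 probes tested, 11 besides that of Ctgf were as low or lower on both arrays.

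Cyr61, on chromosome 3 from 145646971 to 145649985, encodes a second secreted CCN protein. At E14.5 its intensity was 104430 in 2D culture against 6530 in RTOC, and at E15.5 it was 48221 against 3334. The 2D value at E14.5 was 2.17 times that at E15.5 and the RTOC value 1.96 times, so the ratio was nearly the same at both stages. Its mean log2 ratio was −3.93 ± 0.10 (SD, n = 2; limma adjusted p = 0.00155), or 15.2-fold lower.

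Ankrd1, on chromosome 19 from 36111965 to 36119844, encodes an ankyrin-repeat protein best known from the heart, where it links the sarcomere with transcription. The 2D culture read 20276 at E14.5 and 28985 at E15.5, and the RTOC read 1865 and 1940. The RTOC values were close to each other, and the 2D values differed by stage in the direction opposite to those of Cyr61. On the log2 scale Ankrd1 averaged −3.67 ± 0.32 (SD, n = 2; limma adjusted p = 0.00169), or 12.7-fold lower.

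Amotl2, on chromosome 9 from 102717091 to 102733418, encodes a junctional scaffold of the angiomotin family that binds YAP and holds it outside the nucleus, so that it is both a target and an inhibitor. At E14.5 the 2D culture read 10888 and the RTOC 1084, and at E15.5 they read 4994 and 705. The 2D value was the higher on each array, and the mean log2 ratio was −3.08 ± 0.36 (SD, n = 2; limma adjusted p = 0.00227), or 8.44-fold lower. Of all named genes tested, 1.24% had a mean log2 ratio at or below that of Amotl2.

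Lats2, on chromosome 14 from 57689662 to 57746212, encodes a kinase that phosphorylates YAP and TAZ and is itself induced by them. Its brightest probe read 8463 (E14.5) and 3666 (E15.5) in 2D culture and 1812 and 2055 in RTOC. The RTOC values were alike, and the 2D value was 2.31 times as high at E14.5 as at E15.5. The ratio averaged −1.53 ± 0.98 (SD, n = 2; limma adjusted p = 0.0365), and the gap of 1.39 between the arrays was exceeded by 6.29% of the tested probes. Lats2 was 4.67-fold lower in RTOC at E14.5 and 1.78-fold lower at E15.5. Its call was lost when background was corrected with normexp before loess, where the limma adjusted p was 0.0828.

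The 4 Lats2 probes fell into pairs. The probe that shares 32 of its 60 bases with the brightest gave a mean log2 ratio of −1.48, and the remaining 2 probes, which share at most 7 bases in a row with any other, gave −2.56 and −2.39. All 4 were called lower, with limma adjusted p between 0.00421 and 0.0406. The ratio was more negative at E14.5 than at E15.5 for each of them.

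**Figure D2:**
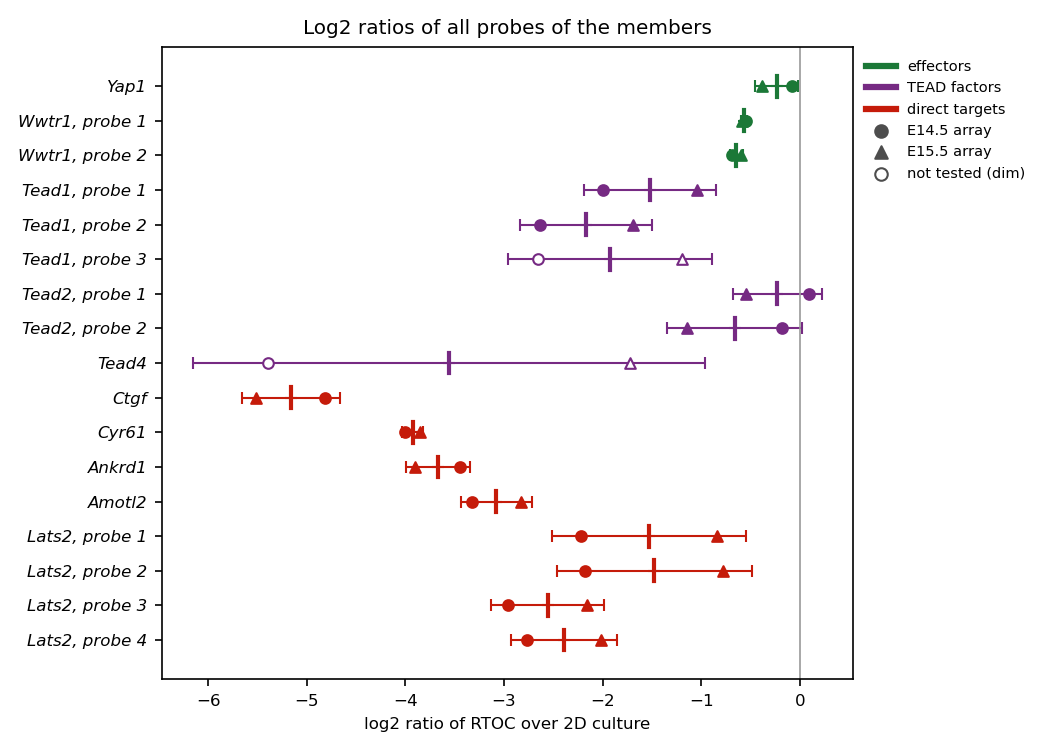
Log2 ratio of RTOC over 2D culture for each of the 17 probes of the members, with circles for the E14.5 array, triangles for the E15.5 array, a vertical bar for the mean and whiskers for its SD over the 2 arrays; open symbols were too dim to be tested. The points of Cyr61 and of both Wwtr1 probes nearly coincide, whereas those of Lats2 and Tead1 are spread, with the E14.5 array the lower at each of their probes.

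Neither effector passed the test. Yap1, on chromosome 9 from 7931999 to 8004638, read 595 in 2D culture against 562 in RTOC at E14.5, and 1360 against 1040 at E15.5. The stages differed more than the cultures did, since the E14.5 values were 0.437 times the E15.5 value in 2D culture and 0.541 times in RTOC. The log2 ratio averaged −0.23 ± 0.22 (SD, n = 2; limma adjusted p = 0.527), with a 95% interval from −0.88 to 0.41.

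Wwtr1, on chromosome 3 from 57455644 to 57575910, read 6692 in 2D culture against 4592 in RTOC at E14.5, and 10397 against 6919 at E15.5. The ratio was nearly identical on the arrays, at −0.54 and −0.59. Its mean was −0.57 ± 0.03 (SD, n = 2; limma adjusted p = 0.143), with a 95% interval from −1.19 to 0.06. A second Wwtr1 probe gave −0.69 and −0.60 (limma adjusted p = 0.108). Both probes thus read lower in RTOC on both arrays, by an amount that limma did not separate from 0.

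Tead1, on chromosome 7 from 112679356 to 112906784, was called lower. Its brightest probe read 24163 (E14.5) and 12815 (E15.5) in 2D culture and 6078 and 6208 in RTOC. As with Lats2, the RTOC values were alike and the 2D value was higher on the E14.5 array, here by 1.89 times. This gave a mean log2 ratio of −1.52 ± 0.67 (SD, n = 2; limma adjusted p = 0.0222). A second probe, with no stretch of over 7 bases shared with the other Tead1 probes, gave −2.64 and −1.69 (limma adjusted p = 0.00784). The brightest probe lost its call with normexp and median centring (limma adjusted p = 0.104). Both of these probes carry the older symbol in the array design. The probe designed under the name Tead1 was not well above background in any channel and was not tested.

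Tead2, on chromosome 7 from 45215792 to 45233468, read 1702 in 2D culture against 1814 in RTOC at E14.5, and 2751 against 1883 at E15.5. The cultures overlapped. The mean log2 ratio was −0.23 ± 0.45 (SD, n = 2; limma adjusted p = 0.578), with a 95% interval from −0.94 to 0.48. A second probe gave −0.18 and −1.14 (limma adjusted p = 0.176), again with the lower value on the E15.5 array.

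Tead4, on chromosome 6 from 128227143 to 128300813, was well above background in 1 of the 4 channels, 2D culture on the E14.5 array, where it read 571. Against this stood 68.1 in 2D culture on the E15.5 array and 13.6 and 20.7 in RTOC, all 3 too dim to be read as levels. It was not tested, and no bound is given for its ratio, because only 1 of the 2 arrays measured it in 2D culture. Tead3, the remaining TEAD gene of the mouse and no member of the set, gave −0.46 and −0.14 (limma adjusted p = 0.417).

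**Figure D3:**
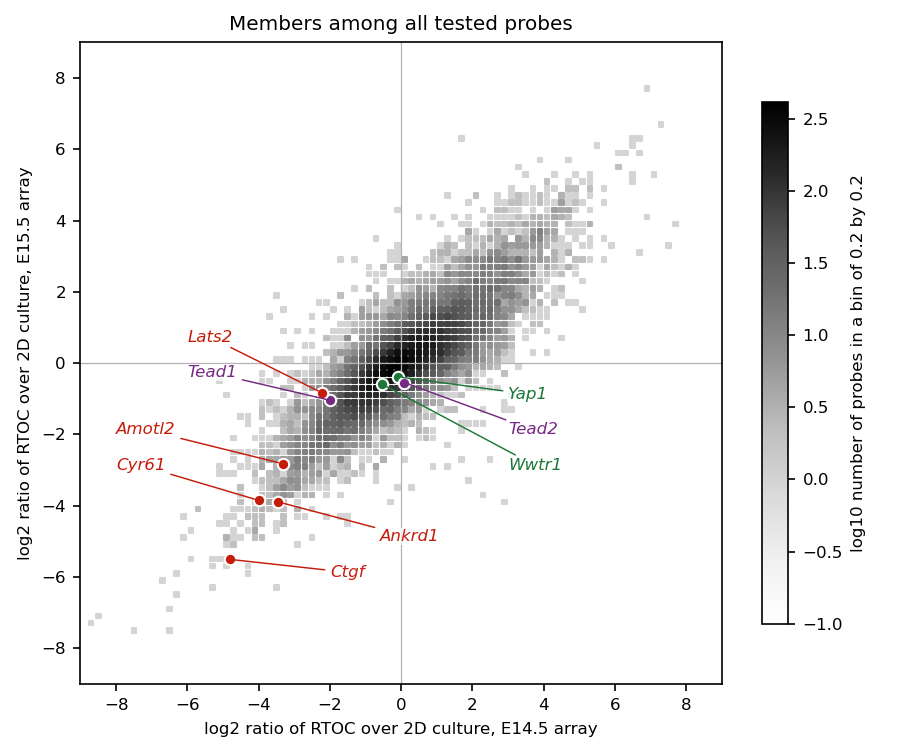
Log2 ratios (RTOC over 2D) of all 23685 tested probes, with the E14.5 array on the horizontal and the E15.5 array on the vertical axis, in grey by number of probes per bin, with the brightest probe of each tested member in colour (green for effectors, purple for TEAD factors, red for direct targets). Ctgf, Cyr61, Ankrd1 and Amotl2 lie at the lower left end of the cloud, Tead1 and Lats2 nearer to its middle, and Yap1, Wwtr1 and Tead2 next to its centre.

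By class, the median of the mean log2 ratios was −3.67 for the 5 direct targets, −0.87 for the 2 TEAD factors tested and −0.40 for the 2 effectors, and it was 0.0024 over all named genes tested. The targets' median lay below that of the effectors by 3.13 on the E14.5 array and by 3.37 on the E15.5 array. On each array every target had a lower ratio than either effector, with Lats2 at E15.5 (−0.83) closest to Wwtr1 (−0.59). The order among the targets was Ctgf, Cyr61, Ankrd1, Amotl2 and Lats2 from the most to the least lowered by the mean. The 95% intervals ran from −5.89 to −4.43 for Ctgf and from −4.56 to −3.30 for Cyr61, and from −3.76 to −2.40 for Amotl2 and −2.50 to −0.56 for Lats2. The order held on both arrays except that Ankrd1 (−3.90) lay below Cyr61 (−3.85) at E15.5, and the differences between neighbours were not tested. Over all tested probes the median gap between the arrays was 0.403 on the log2 scale.

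By stage, the members took different courses in 2D culture. Cyr61, Amotl2, Lats2, Tead1 and Ctgf read higher on the E14.5 array than on the E15.5 array, by 1.21 times for Ctgf to 2.31 times for Lats2. Yap1, Wwtr1, Tead2 and Ankrd1 read lower there, at 0.437 to 0.700 times the E15.5 value. In RTOC, Ctgf, Cyr61 and Amotl2 again read higher on the E14.5 array, by 1.96, 1.96 and 1.54 times. With 1 array per stage these differences have no replicate check.

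Upstream of the effectors, 15 core kinases and adaptors of the pathway were tested by their brightest probes. Of these, 1 (6.67%) was called lower, beside 12.8% of all named genes, 0 were called higher, and the list's median was 0.15. Another probe was called lower for 2 more, Stk4 (−1.12, limma adjusted p = 0.0370), the gene of the kinase MST1, and Map4k4 (−1.02, limma adjusted p = 0.0350), both named after their values were seen. The gene called lower was Stk38l, a kinase related to LATS, at −1.19 ± 0.07 (SD, n = 2; limma adjusted p = 0.0219), and its second probe gave −0.86 (limma adjusted p = 0.0638). Lats1, the paralog of Lats2, gave −0.33 and 0.19 (limma adjusted p = 0.867).

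Of 24 upstream regulators at junctions and the apical domain, 22 were tested, 8 (36.4%) were called lower and 2 higher, 45.5% in either direction beside 28.3% of all named genes, with a median of −0.64. The lowest was Crb3, an apical polarity protein, at −3.18 ± 0.09 (SD, n = 2; limma adjusted p = 0.00191), followed by Wwc2, a relative of the scaffold KIBRA, at −2.43 ± 0.56 (SD, n = 2; limma adjusted p = 0.00474). The 2 called higher were Rassf5, an adaptor that binds the MST kinases, at 1.99 ± 0.09 (SD, n = 2; limma adjusted p = 0.00504), and the giant cadherin Fat4 at 1.97 ± 0.96 (SD, n = 2; limma adjusted p = 0.0176). All 4 were well above background in every channel. Frmd1 and Dchs2 were not among the named probes.

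Amotl2 has a pair of relatives. Amot was called lower, at −1.65 ± 0.66 (SD, n = 2; limma adjusted p = 0.0177). The brightest Amotl1 probe gave −0.21 and 0.18 (limma adjusted p = 0.974), whereas a second probe gave −1.85 (limma adjusted p = 0.0156), so the Amotl1 probes disagreed; Amotl1 was singled out after its values were seen. Among the other CCN genes, 2 were tested. Wisp1 (Ccn4) was called lower, at −3.20 ± 0.90 (SD, n = 2; limma adjusted p = 0.00392), and Nov (Ccn3) gave −1.65 and −0.07 (limma adjusted p = 0.176) and was also named after its values were seen.

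Of 10 factors that act with TEADs or compete for them, 8 were tested, 3 were called lower and 2 higher, 62.5% in either direction beside 28.3% of all named genes, with a median of −0.42. Vgll3, a vestigial-like cofactor of TEADs, gave −4.67 ± 0.44 (SD, n = 2; limma adjusted p = 0.00155), and its second probe gave −4.30 (limma adjusted p = 0.00155). Its relative Vgll4, which competes with YAP for TEADs, was called higher, at 1.13 ± 0.10 (SD, n = 2; limma adjusted p = 0.0256). Runx2, a Runt-domain factor of bone that binds YAP and TAZ, gave −3.02 ± 0.995 (SD, n = 2; limma adjusted p = 0.00534). Smad4, the common mediator of TGF-beta signals, gave 1.11 ± 0.29 (SD, n = 2; limma adjusted p = 0.0318), and its second probe gave 0.83 (limma adjusted p = 0.0574). Vgll1 and Vgll2 were too dim to be tested.

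A list of 17 genes known as YAP targets in other cells was also examined, of which Fjx1, called lower, and Ptpn14, not called, stand among the upstream regulators too. All 17 were tested, 10 were called lower and 0 higher, beside 12.8% called lower of all named genes. This list too was chosen with earlier results of these data known, so the count is a description and no independent check. Their median of −1.45 stood between that of all named genes and the −3.67 of the 5 direct targets. Foxf2, a mesenchymal forkhead factor, gave −4.85 at E14.5 (limma adjusted p = 0.00155 over both arrays), and in RTOC at E15.5 it was not well above background, so its ratio there rests on a dim signal. F3, tissue factor, gave −2.91 ± 0.22 (SD, n = 2; limma adjusted p = 0.00228). The least lowered of those called were Gadd45a, a stress-response gene, at −1.44 ± 0.06 (SD, n = 2; limma adjusted p = 0.0128), and Dock5, an exchange factor for Rac, at −1.45 ± 0.35 (SD, n = 2; limma adjusted p = 0.0162). The 7 genes not called ranged up to 0.93 on the log2 scale.

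**Figure D4:**
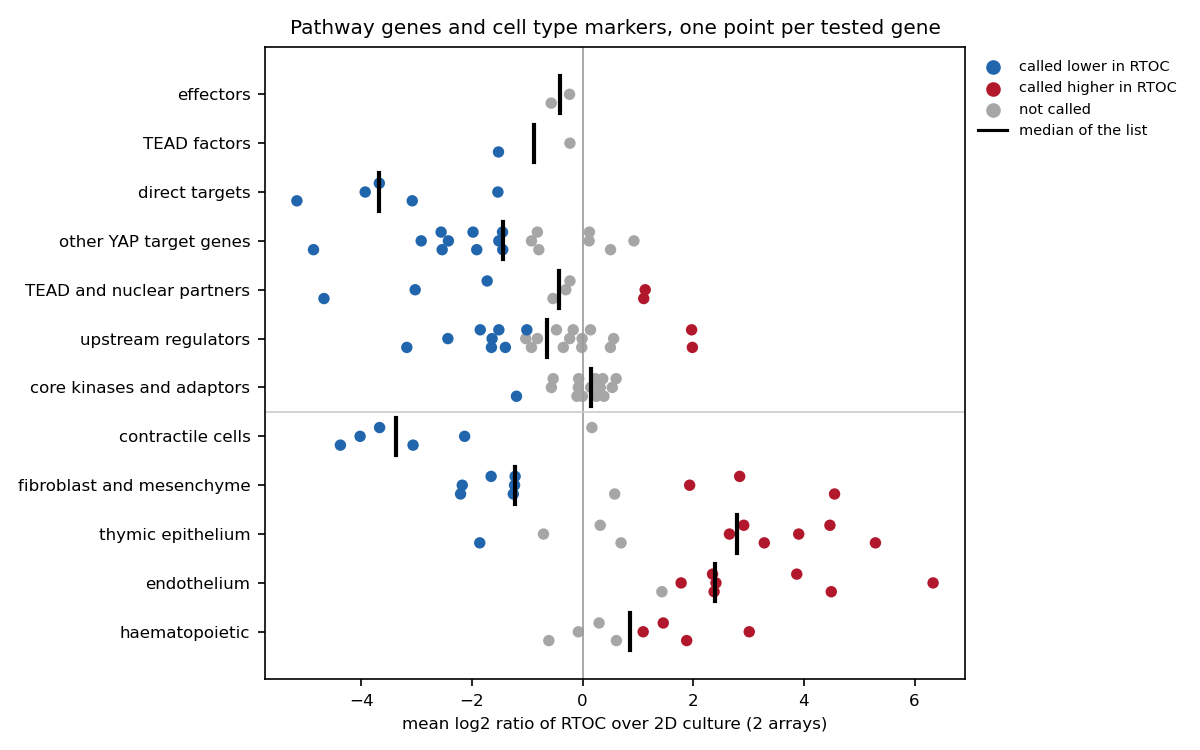
Mean log2 ratio (RTOC over 2D, 2 arrays) of the tested genes of pathway lists (upper rows) and of the cell type marker lists (lower rows). Blue marks genes called lower, red genes called higher, grey genes not called and a black bar the list's median. The other CCN genes have no row, and Amot and Amotl1 stand among the upstream regulators. The direct targets and the contractile markers have the lowest medians, at −3.67 and −3.36, and the kinase list is centred at 0.15.

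Markers of the cell types in the mixture moved as well, and their counts stand beside the 12.8% of all named genes called lower and the 28.3% called in either direction. Of 7 contractile markers, 6 were tested and 5 (83.3%) were called lower, with a median of −3.36, led by Tagln (transgelin) at −4.38 ± 0.38 and Cnn1 (calponin) at −4.02 ± 0.29 (SD, n = 2; limma adjusted p = 0.00155 for both). Their summed intensity was 9.29 times as high in 2D culture as in RTOC at E14.5 and 12.1 times at E15.5. A summed intensity adds probes of different genes, so the brightest weigh most, and it does not measure the share of a cell type. Des was the contractile marker not well above background in any channel. Myh11, well above background in every channel, was tested and not called, at −0.62 at E14.5 and 0.95 at E15.5 (limma adjusted p = 0.782).

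Of 10 fibroblast and mesenchyme markers, 6 were called lower, with Fn1 at −2.20 and Col1a1 at −2.17, and 3 were called higher, with Lum at 4.55 and Pdgfra at 2.84. The median of the list was −1.22. Its summed intensity was 1.90 times as high in 2D culture on the E14.5 array and 1.37 times on the E15.5 array. Of 10 thymic epithelial markers, 6 were called higher, led by Prss16 at 5.29 and Ly75 at 4.47, and 1 was called lower, Krt14 at −1.86. The 3 not called were Epcam (−0.54 at E14.5 and −0.87 at E15.5), Krt8 (1.06 and −0.42) and Krt18 (1.01 and 0.38). The epithelial median was 2.78, and the summed intensity, set by the brightest probes, was 2.92 and 1.54 times as high in RTOC.

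Of 8 endothelial markers, 7 were called higher and 0 lower, with a median of 2.39 that includes dim 2D values. Cldn5 gave 4.50, with the 2D channel of the E14.5 array not well above background, and Cdh5, not well above background in 2D culture on either array, was at least 5.02-fold higher in RTOC (limma adjusted p = 0.00155). The summed endothelial intensity was 1644 and 801 in 2D culture, where 3 and 4 of the 8 markers were well above background, and 8342 and 12920 in RTOC. Of 10 haematopoietic markers, 8 were tested and 4 were called higher, led by the macrophage marker Adgre1 at 3.01 and Ptprc (CD45) at 1.88. The median of the 8 was 0.85, and the summed intensities of the list were 2.48 and 3.84 times as high in RTOC. Of the T-cell markers, Cd3e (−0.03 and −0.12; limma adjusted p = 0.841) and Lck (1.03 and −0.43; limma adjusted p = 0.602) were well above background in every channel and did not pass the test, and Cd4 and Cd8a were too dim to be tested. The part of these shifts in the values of the YAP and TEAD genes was not tested.

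**Figure D5:**
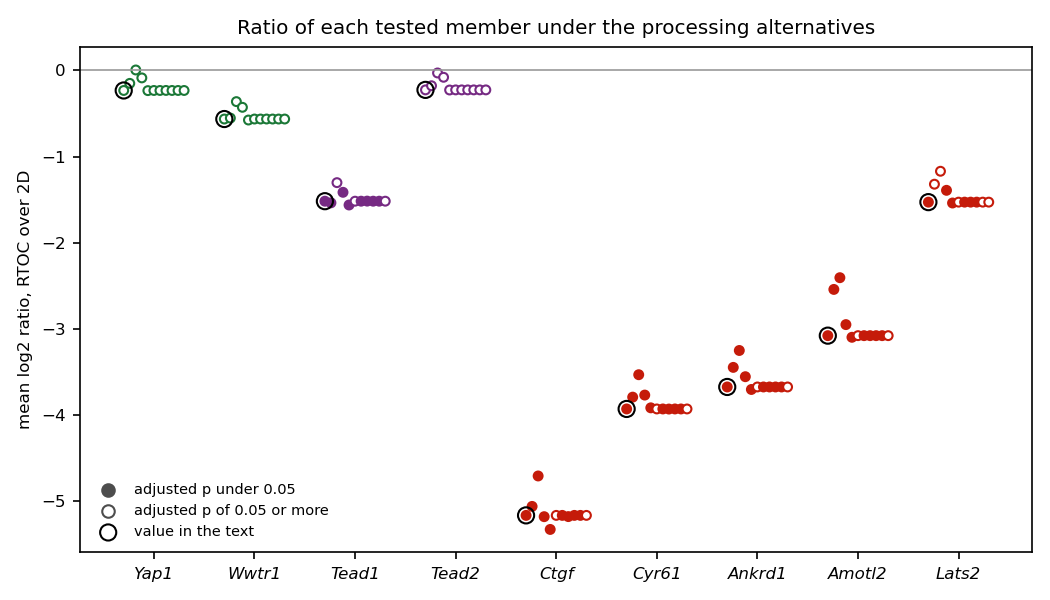
Mean log2 ratio (RTOC over 2D) of each tested member under 11 distinct ways of processing the arrays, with filled symbols where the adjusted p was under 0.05 and a black ring around the value given in the text. Ctgf, Cyr61, Ankrd1 and Amotl2 were called in 9 of the 11, Tead1 in 8 and Lats2 in 6, and the 3 members near 0 in none.

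The p-values rest on few arrays. With 2 ratios per probe, limma has 1 residual degree of freedom and borrows the rest of its spread from all probes, and an exact sign-flip test of a single gene over the 2 arrays, two-sided, has p = 0.5 as its smallest value. Tested one-by-one with the methods' t-test, 0 members passed after adjustment. An unadjusted p under 0.05 was found for 4, namely Ctgf, Cyr61, Ankrd1 and Wwtr1, of which Wwtr1 is not among the members called.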

How the data were processed

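Total RNA was labelled with Cy3 (2D culture) and Cy5 (RTOC), and each of 2 Agilent whole mouse genome arrays paired the cultures of 1 stage. The authors deposited, per the file headers, spot mean and background intensity, a processed intensity after background subtraction and dye normalization, and a log10 ratio with a single-array p-value that was not used. The deposited series values equal that log10 ratio within 5e-10. Feature Extraction is given as version 9.1.3.1 in the file headers and as 11.5.1.1 in the submitters' processing notes.

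Control spots and outlier spots (5 and 1) were left out, the 4 channels of processed intensity were quantile normalized as the methods state, and spots were averaged per probe. Probes were named through RefSeq accession (22951), symbol (6659) or older symbol (3109). The 8455 others kept the name in the files. Tested were the probes that rose well above background in at least 1 channel per array (by channel, 53.1 to 60.9% of probes did). Log2 ratios were compared with 0 in limma 3.58.1 in R 4.3.3 (lmFit, eBayes, two-sided, Benjamini-Hochberg, threshold 0.05). A gene is given by its brightest tested probe, and the other probes of members are given too. A bound stands where 1 culture was below background on both arrays and the other was well above it on both. It was taken after normexp, loess and Aquantile normalization. Spike-in slopes of 0.850 and 0.842 show that ratios are compressed. The steps were tested on simulated data.

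The members and lists were chosen with earlier results of these data known. Named are all members, Tead3, Lats1, and in each other list up to 2 of the highest and 2 of the lowest ratios among genes called. Some genes are named outside this rule, among them Ptpn14 and cell type markers that were not called or not tested. Alternatives were other background corrections and scalings, other filters, no replicate block, other moderation, the plain t-test, other probes, and each array left out. Nothing says that the arrays came from separate litters. The limma p-values thus rest on the spread between these 2 arrays, which differ in stage, and on spread borrowed from all probes.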

Additional observations from a re-analysis of the deposited data

Results flagged for a closer look

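The log2 ratio of RTOC over 2D culture had opposite signs on the arrays for the brightest probe of 4 of the genes named with their values. Tead2 gave 0.0922 at E14.5 and −0.5473 at E15.5. Lats1 gave −0.3295 and 0.1908, Amotl1 gave −0.2116 and 0.1841, and Lck gave 1.033 and −0.4344. Each stage has 1 array, so no difference between them was tested, and none of these probes passed the limma test. A second probe of Amotl1 was negative on both arrays and was called lower.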

How the results depend on the processing

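Over 10 distinct alternatives with a test, 73 of 90 values of single members kept their direction and their side of the threshold, 16 lost the call and 1 changed sign without a call. The count of 6 members called lower fell to 0 of 10 with no filter on dim probes. At an unadjusted p under 0.05 with limma were then 5, namely Ctgf, Cyr61, Ankrd1, Amotl2 and Wwtr1. The count fell to 0 of 9 with the plain t-test after adjustment. At an unadjusted p under 0.05 with that test were 4, the same without Amotl2. Aquantile after loess and the series values leave the ratios of another alternative as they are and were not counted again. With no filter 0 of 41168 probes were called, against 6855 of 23685 with it. With the plain t-test 4 of 23685 were called. Lats2 lost its call under normexp with loess, with or without Aquantile (limma adjusted p = 0.0828), and Lats2 (0.164) and Tead1 (0.104) under normexp with median centring. Without the replicate block, with the cultures as unpaired channels, 5 members were called and Lats2 was not (limma adjusted p = 0.0715). Each array is its own pair of cultures. Over all settings the adjusted p ranged from 2.00e-05 to 0.331 for Ctgf and from 0.0218 to 0.460 for Lats2.

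With normexp and median centring the class medians were −0.1801 for effectors, −0.6670 for TEAD factors and −3.249 for direct targets, and the median of all tested probes rose to 0.122. With processed signals centred on the median they were −0.2590 and −0.7481 for effectors and TEAD factors, with all probes at 0.151. The TEAD median was −1.518 with no filter, which let in the dim probe of Tead4 and made Tead1 the middle value. It was −1.143 over all tested probes of a gene. In an alternative chosen after seeing the data, it was −0.2275 with the older symbol of Tead1 left out. Leaving out an array gave medians from −0.49 to −0.31 for effectors, from −0.95 to −0.80 for TEAD factors and from −3.85 to −3.44 for direct targets, with no test, since no residual degree of freedom remained. Signal over background limits Tead4.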
